A study of Mus musculus with 2 samples.

Results

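Mir204 and Mir211 are the mouse genes of miR-204 and miR-211, a pair of microRNAs (miRNAs) that share their seed and lie in introns of the cation channel genes Trpm3 and Trpm1. They were chosen by gene name, with earlier results of these data known, and are 2 of the 2202 miRNA genes counted. The counts come from small RNA under 30 nt from the hippocampus of adult female mice of strain 5xFAD/CAST, 8 to 10 months old. The study has 1 group of 2 biological replicates, so no treatment, genotype or age can be compared. The labels give each replicate its own biosample under a common donor entry and do not say whether they are separate animals, so differences between them measure the spread between these 2 samples, part of which may be technical. The 5xFAD transgenes express mutant human amyloid precursor protein and presenilin from a neuronal promoter and lead to amyloid plaques; CAST is an inbred strain from Mus musculus castaneus, and every sample carries the same strain label.

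A miRNA guides an Argonaute protein to messenger RNAs that pair with its seed, the bases near its 5′ end, and lowers their stability and translation. A shared seed therefore gives miR-204 and miR-211 many predicted targets in common. miR-204 is known for its abundance in the choroid plexus, which makes cerebrospinal fluid and borders the hippocampus, and in the pigment epithelium of the retina. miR-211 is known from melanocytes and melanoma, where the pigment cell factor MITF drives its host Trpm1. Trpm3 encodes a channel opened by heat and by steroids, and Trpm1 a channel of retinal ON bipolar cells and melanocytes.

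The mature sequences show how closely the pair is related, and which part of the hairpin holds the seed. They are taken from RefSeq (GRCm38.p6), which held both genes, and are written 5′ to 3′ with the seed, bases 2 to 8 of the mature miRNA, in capitals.
mmu-miR-204-5p: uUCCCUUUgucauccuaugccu
mmu-miR-211-5p: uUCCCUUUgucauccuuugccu
mmu-miR-204-3p: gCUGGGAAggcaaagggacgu
mmu-miR-211-3p: gCAAGGACagcaaaggggggc

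The 5p arms were 22 bases long and identical at 21 positions. Counted from 1 at the 5′ end, with the base of miR-204 first, the single difference was A17U. The first 16 bases, seed included, were thus the same. The 3p arms, 21 bases each, differed at 7 positions (U3A, G4A, A8C, G9A, A18G, C19G and U21C, on the same count), and 3 of these fall within the seed, so the 3p arms do not share one. Because a count was given per gene and not per arm, the share of 5p and 3p molecules was not measured.

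The 2 hairpins differed more than their 5p arms. In these precursors the capitals mark the seed of the 5p arm.
Mir204 hairpin: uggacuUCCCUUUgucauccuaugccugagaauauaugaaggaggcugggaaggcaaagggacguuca
Mir211 hairpin: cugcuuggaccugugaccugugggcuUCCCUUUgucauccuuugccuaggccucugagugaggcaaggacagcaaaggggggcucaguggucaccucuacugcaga

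The annotated Mir204 hairpin had 68 bases and 48.5% G and C, and that of Mir211 had 106 bases and 57.5%. Folded with RNAfold, they gave minimum free energies of -33.7 and -57.6 kcal per mol, with 48 and 80 bases paired. The stretch between the mature arms was 17 bases in Mir204 and 15 in Mir211. Among 141767 GENCODE transcripts searched on both strands, each mature sequence of either arm was found in its own gene only. The shared 16 bases at the start of the 5p arms were found in Mir204 and Mir211 and in no other gene of that set, so a read that ends before base 17 has the same letters in both. The genome outside annotated transcripts was not searched.

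A single other RefSeq mouse miRNA shared the 5p seed. It was miR-7670-3p, printed here because it completes the seed group, and it differs from the pair after base 8.
mmu-miR-7670-3p: uUCCCUUUcugaauaucuguaga

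Mir7670 had 0 counts in both libraries. The seed of miR-204-3p was shared with miR-7684-5p, whose gene Mir7684 also had 0 counts in both. Levels are given as CPM, the usual scaling of a count to library size, here to the counts assigned to miRNA genes in sense orientation. With 3 counts as the limit, a gene without counts could be at most at 0.957 CPM in the first library and at 0.685 CPM in the second. Among the RefSeq miRNAs with this 5p seed, only those of Mir204 and Mir211 came from genes with counts.

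Both genes lie on the strand of their hosts and in corresponding places within them. In mm10, Mir204 (ENSMUSG00000065507.3) is on the plus strand at chr19:22750605-22750672, and Trpm3 (ENSMUSG00000052387.16) spans 22139046 to 22995410. Mir211 (ENSMUSG00000065585.1) is on the plus strand at chr7:64205806-64205911, and Trpm1 (ENSMUSG00000030523.18) spans 64153835 to 64269775. Neither hairpin overlapped an annotated exon of its host. Of the Trpm3 transcripts, 18 of 24 span Mir204, and in 14 of these the hairpin lies between exons 6 and 7. Of the Trpm1 transcripts, 12 of 23 span Mir211, and in 8 of these it also lies between exons 6 and 7. The size of the intron differed: 33462 bases around Mir204 and 3682 around Mir211.

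**Figure D1:**
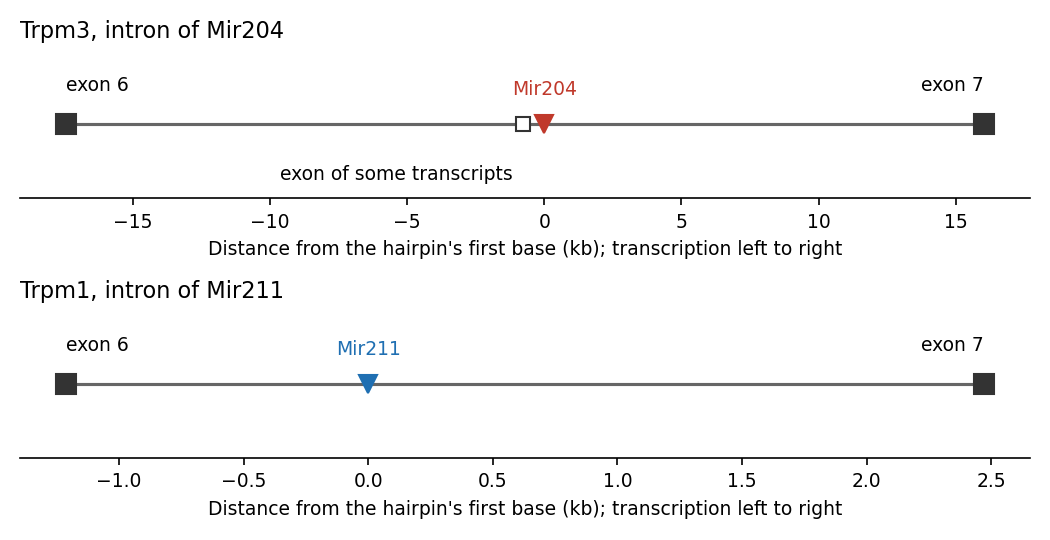
Position of each hairpin in the commonest host intron. The x axis gives the distance in kb from the first base of the hairpin, filled squares the flanking exons 6 and 7 (not to scale in width), the open square an exon of 4 Trpm3 transcripts, and the triangle the hairpin. Mir204 lies near the middle of a 33462-base intron of Trpm3, while Mir211 lies 1212 bases after exon 6 in a 3682-base intron of Trpm1.

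Mir204 stands 17433 bases after exon 6 and 15961 before exon 7, but 4 further Trpm3 transcripts place an exon 759 bases upstream of it. Mir211 stands 1212 bases after exon 6 and 2364 before exon 7. No other miRNA gene lay within 10000 bp of either. Across 26 genes of the TRP channel family, the only other annotated miRNA was Mir6416, 44072 bases from Mir211 on the opposite strand of Trpm1, and it had 0 counts in both libraries. Host messenger RNA was not measured in these small RNA libraries.

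The library of replicate 1 held 9962659 reads and that of replicate 2 held 12761689. Sense counts of miRNA genes made up 31.5% and 34.3% of them, while 36.3% and 41.7% mapped to several places and stand outside the gene counts. Unmapped reads were 26.5% and 18.1%. With no sample of another tissue, the hippocampus label could not be checked. Of 17 neuronal miRNA genes, 13 reached 10 counts in each library, where 384 of all 2202 genes did. The 13 were led by Mir132 at 17397 ± 6067 CPM and Mir128-1 at 6807 ± 3199 CPM (SD, n = 2). The 4 others were Mir9-2 and the 3 copies of Mir124a, the classic neuronal miRNA, with 10 counts or fewer each. Reads that match several copies of a gene stand outside the gene counts, so these low counts do not measure the level of miR-124 or miR-9. Of glial, vascular and blood genes, Mir219a-2 and Mir338 of oligodendrocytes were at 3540 ± 343 and 3197 ± 423 CPM, Mir126a and Mir143 of vessels at 17498 ± 7038 and 7269 ± 872, and Mir150 and Mir142 of leukocytes at 797 ± 8.24 and 241 ± 5.28.

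Mir204 was well above the typical detected gene. It had 3599 counts in replicate 1, or 1148 CPM with an exact Clopper-Pearson 95% interval of 1110 to 1186. In replicate 2 it had 3255 counts, or 744 CPM with an interval of 718 to 770. The level was higher in replicate 1, and the 2 intervals did not overlap. The mean was 946 ± 286 CPM (SD, n = 2), which is 0.0946% ± 0.0286 of assigned counts. Of the 384 genes detected, meaning at least 10 counts in each library, 74.5% had a lower mean than Mir204. Its mean was 8.18 times the median of detected genes, 116 CPM. Intervals and limits cover counting error only, since reads copied by PCR are not independent molecules.

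Mir211 was present at a much lower level. It had 250 counts in replicate 1, or 79.7 CPM with an interval of 70.1 to 90.2. In replicate 2 it had 306 counts, or 69.9 CPM with an interval of 62.3 to 78.2. Here the 2 intervals overlapped. The mean was 74.8 ± 6.94 CPM (SD, n = 2), 0.647 times the median of detected genes, and 43.2% of these genes were lower. In both libraries the lowest limit for Mir211 lay far above the level that a count of 0 allows.

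Neither gene had a count on the opposite strand in either library. This allows opposite-strand reads of up to 0.0834% and 0.0922% of the Mir204 count in replicates 1 and 2, and up to 1.20% and 0.980% of the Mir211 count. Both genes also had the same count with and without regard to strand.

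By mean level Mir204 ranked 98 of 2202 genes, at 88 in replicate 1 and 109 in replicate 2. Its neighbours in this order were Mir376a at 967 ± 260 and Mir409 at 846 ± 128 CPM, and Mir204 differed from both by less than its own SD. Mir211 ranked 218, at 212 and 218 in the 2 replicates. Next to it stood Mir130b at 76.7 ± 11.0 and Mir152 at 73.6 ± 15.2 CPM, again within the spread. Over the 2 libraries together, the genes nearest to Mir204 in log2(CPM + 1) were Mir34a at a distance of 0.37, Mir370 at 0.45 and Mir130a at 0.47. Nearest to Mir211 were Mir130b at 0.09, Mir410 at 0.17 and Mir29b-1 at 0.23. With 2 libraries this likeness describes level alone.

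**Figure D2:**
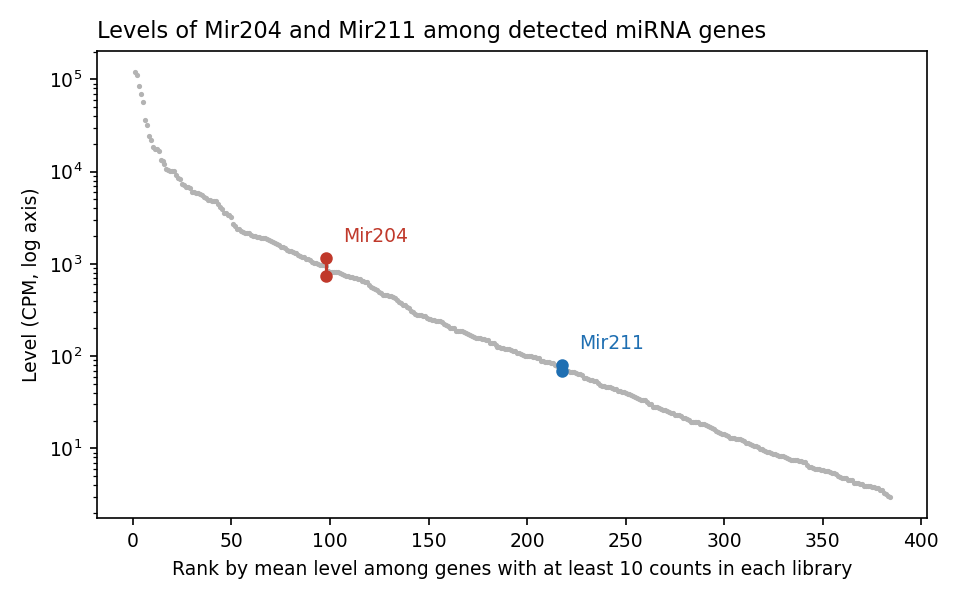
Mean level of each of 384 detected miRNA genes (grey, CPM on a log axis) against its rank. Coloured points give the 2 replicates of Mir204, at 1148 and 744 CPM, and of Mir211, at 79.7 and 69.9 CPM, and the vertical line joins them.

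Among intronic genes the order was alike. Of the detected genes, 158 lay in an intron of a protein-coding gene on the same strand and overlapped none of its exons, with a median of 75.8 CPM. Mir204 ranked 34 among these and Mir211 ranked 80, close to the middle.

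The counts of Mir204 exceeded those of Mir211 by over 10 times in both libraries. The ratio was 14.4 in replicate 1 (exact binomial 95% interval 12.7 to 16.4) and 10.6 in replicate 2 (9.46 to 12.0), with a mean of 12.5 ± 2.66 (SD, n = 2). Both genes were counted in the same library, so no scaling enters this ratio. Mir211 supplied 6.50% of the pair's counts in replicate 1 (5.74% to 7.32%) and 8.59% in replicate 2 (7.69% to 9.56%). Together the pair was at 1227 CPM in replicate 1 and 813 in replicate 2, or 1020 ± 293 CPM (SD, n = 2). The share of Mir211 was the lower where the pair was the more abundant. Mir204 supplied most of the pair's counts and so largely sets both values, which makes this no separate observation.

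The pair ratio itself differed between the libraries by more than counting error. It was 1.35 times as high in replicate 1 (95% interval 1.13 to 1.62), and Fisher's exact test on the 4 counts gave p = 0.000669, two-sided. This test compares 2 libraries, not conditions, and no p over replicates is possible with 1 group.

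Other seeds give a rough scale for this ratio. A further description, added after the levels were seen, covered the 325 of 384 detected genes with a matched RefSeq mature sequence. It took every seed carried by exactly 2 of these genes whose mature sequences are not identical. Detected genes without a matched sequence were left out, so a seed may have further carriers. The median and the place given below hold for these pairs only. Counts are per gene, so a ratio need not compare the arms that carry the shared seed. Reads that match several copies of a gene stand outside the counts. A gene with another copy may thus count too low, which was not corrected. There were 34 such gene pairs, some sharing a gene. The ratio of the higher to the lower gene ranged from 1.10 for Mir193a to Mir193b up to 1838 for Mir330 to Mir6240, with a median of 8.79. Mir204 to Mir211 was in place 15 from the top, next to Mir410 to Mir344d-3 at 13.1 ± 3.27 and Mir27b to Mir27a at 12.3 ± 1.62 (SD, n = 2), from which it did not differ beyond its spread. Between the libraries the ratio of a pair changed by a median of 1.44-fold, and 13 of 34 pairs changed less than Mir204 to Mir211. In 6 of the 34 pairs both genes were intronic.

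**Figure D3:**
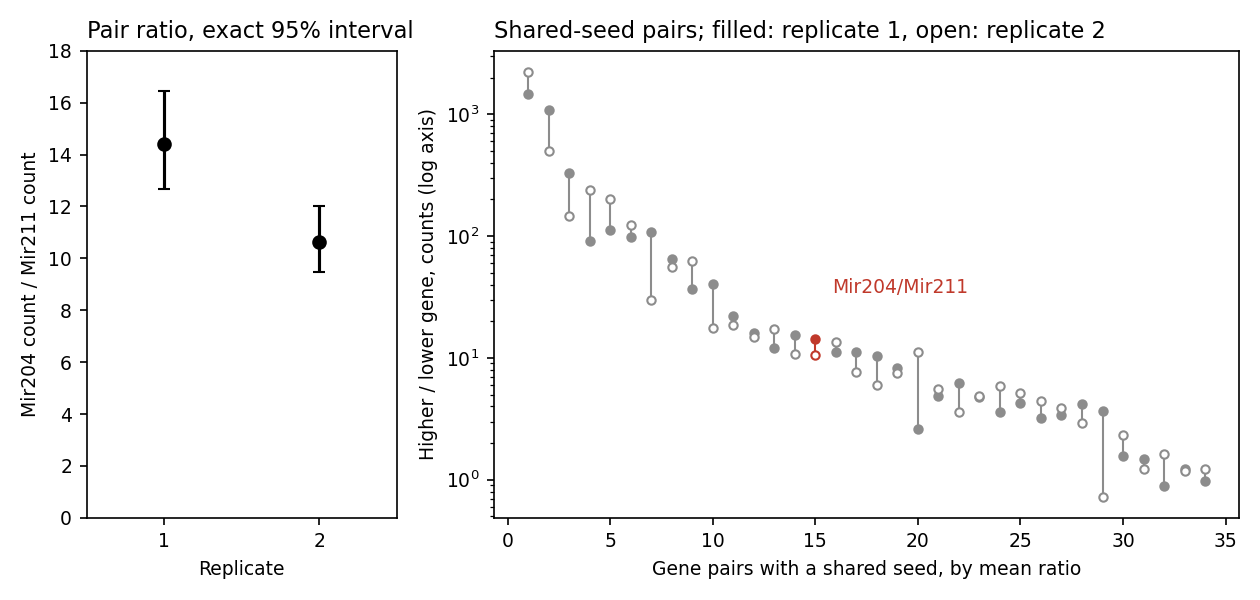
Left, the count of Mir204 over that of Mir211 in each replicate, with exact binomial 95% intervals. Right, 34 gene pairs with a shared seed in order of mean ratio, with the higher over the lower gene on a log axis, replicate 1 filled and replicate 2 open; Mir204 to Mir211, in red, lies in place 15 with 14.4 and 10.6.

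Between the libraries Mir204 differed more than Mir211 did. After TMM scaling, which sets the libraries to a common level over most genes, Mir204 was 1.62 times as high in replicate 1 as in replicate 2 (95% interval 1.54 to 1.70). It passed the exact binomial test with an adjusted p of 2.11e-87. Mir211 was 1.20 times as high (1.01 to 1.42) and did not pass, with an adjusted p of 0.0640 in the same exact test. So 1 of the 2 genes was called, where the test called 56.9% of the 459 genes tested, and 29.0% as higher in replicate 1. A call here says that 2 libraries differ by more than counting error and was common, above all at high counts: 50 of the 59 detected genes within 2-fold of the Mir204 level were called, and 47 of 74 within 2-fold of the Mir211 level. In size, 23.7% of detected genes had a wider ratio than Mir204 and 61.5% a wider ratio than Mir211, and the median was 1.29-fold in either direction. Scaled by all reads of each library, Mir204 was 1.42 times and Mir211 1.05 times as high in replicate 1; that scaling moves the median log2 ratio of the tested genes from -0.03 to -0.22, and the share of calls that are higher in replicate 1 from 51.0% of 261 to 32.5% of 280.

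**Figure D4:**
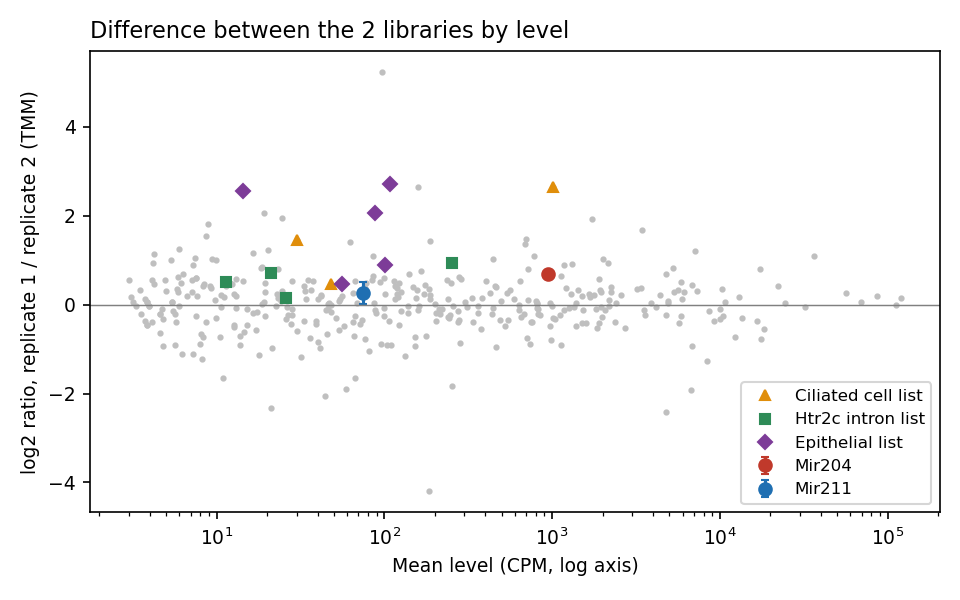
log2 ratio of replicate 1 to replicate 2 after TMM scaling against mean level (CPM, log axis) for 384 detected genes. Mir204 and Mir211 have exact 95% intervals, and the detected genes of 3 lists tied to ciliated cells, the Htr2c intron and epithelium are coloured; all of these, and both members, lie above 0, though Mir1264 falls below it when libraries are scaled by all reads.

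Since miR-204 is known from the choroid plexus, its level is set here beside miRNAs of ciliated and epithelial cells. All gene lists used here were chosen with earlier results of these data known, so the shares called within them are descriptive. The choroid plexus is an epithelium with cilia, and it is the site of very high expression of the serotonin receptor gene Htr2c. In bulk tissue, fewer cells of a type and less RNA per cell cannot be told apart. Mir204 was above every member of the 3 lists in mean level except Mir34c, whose 1020 ± 1029 CPM differed from Mir204 by less than the spread.

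The Htr2c gene carries several miRNAs in its introns, and of 6 listed symbols 5 matched a counted gene and 4 were detected. Mir1298 led at 328 CPM in replicate 1 and 181 in replicate 2. Mir448 was at 25.8 and 16.7 CPM, Mir1264 at 26.8 and 25.4, and Mir764 at 13.1 and 9.59. Mir1912 had 0 counts and 1 count, and Mir1911 had no match. Ratios between the replicates, here and for the other lists, are after TMM scaling, so they differ somewhat from the quotient of the CPM values. Of the 4 detected genes 2 passed the exact test as higher in replicate 1, Mir1298 at 1.90-fold (adjusted p = 6.88e-42) and Mir448 at 1.63-fold (adjusted p = 0.00643). Of all 459 genes tested, 56.9% were called, and 29.0% were called higher in replicate 1. The 2 others were at 1.43-fold for Mir764 (adjusted p = 0.172, exact test) and 1.11-fold for Mir1264 (adjusted p = 0.596, exact test). All 4 ratios were above 1, but scaled by all reads Mir1264 was below 1. Under that scaling 1 of the 4 passed as higher in replicate 1, against 91 of 459 genes tested. The median over these 4 genes was 1.53-fold, where the median of all tested genes was 0.980. It lay between the 1.62 of Mir204 and the 1.20 of Mir211. The medians of the oligodendrocyte list, 1.25, and the vascular list, 1.24, did so too, so this place is not particular to the Htr2c list.

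Ratios within a library need no scaling. Mir204 was 44.4 times Mir448 in replicate 1 (exact binomial 95% interval 35.7 to 56.1) and 44.6 times in replicate 2 (35.4 to 57.0). It was 3.50 times Mir1298 in replicate 1 (3.26 to 3.75) and 4.11 times in replicate 2 (3.80 to 4.45). Over the 4 detected Htr2c genes the ratio of Mir204 changed between the libraries by 1.00-fold with Mir448 to 1.46-fold with Mir1264, and the intervals of the replicates overlapped for 3 of 4, the exception being Mir1298. Mir211 was 0.243 times Mir1298 in replicate 1 (0.211 to 0.279) and 0.386 times in replicate 2 (0.337 to 0.441), without overlap. It was 2.98 times Mir1264 in replicate 1 (2.32 to 3.86) and 2.76 times in replicate 2 (2.21 to 3.46). For Mir211 the change ran from 1.08-fold with Mir1264 to 1.59-fold with Mir1298, and the intervals overlapped for 3 of 4. Overlap comes more easily at few counts, here and in the other lists. Mir448, Mir764 and Mir1264 had 41 to 111 counts per library, and Mir1298 had 1029 and 792. For Mir211 the intervals overlapped for 5 of 5 microglia and blood genes, 1 of 5 epithelial and 1 of 3 ciliated cell genes. They also did for 2 of 3 oligodendrocyte, 2 of 3 vascular and 2 of 4 eye genes. For Mir204 they did for 2 of 5 microglia and blood, 2 of 5 epithelial and 0 of 4 eye genes. In the ciliated cell, oligodendrocyte and vascular lists it was 1 of 3 each. The share over all detected genes was not computed, so whether 3 of 4 is unusual was not tested.

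The miR-34 and miR-449 genes act in the formation of motile cilia, and Mir34c was the most abundant of them. Its level was 1747 CPM in replicate 1 and 292 in replicate 2, and after TMM scaling the ratio was 6.28. Mir34c thus stood above Mir204 in replicate 1 and below it in replicate 2, with Mir204 at 0.657 times Mir34c in replicate 1 (0.630 to 0.685) and 2.54 times in replicate 2 (2.38 to 2.72). Mir34b was at 43.4 and 16.7 CPM, and Mir449a, in an intron of Cdc20b, at 54.8 and 42.0. All 3 tested genes passed the exact test as higher in replicate 1, against 29.0% of all genes tested. By that exact test Mir34b was at 2.73-fold (adjusted p = 4.00e-12) and Mir449a at 1.37-fold (adjusted p = 0.00731). Scaled by all reads, 2 of 3 passed as higher, against 91 of 459 genes tested. Mir449b had 0 counts in both libraries and Mir449c had 0 and 1. The 5 genes summed to 1845 CPM in replicate 1 and 351 in replicate 2.

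Epithelial genes showed a wide range of differences between the libraries. Mir200c was at 185 CPM in replicate 1 and 29.7 in replicate 2, Mir429 at 141 and 35.6, Mir203 at 128 and 72.4, and Mir200b at 63.1 and 48.2. Mir200a was at 24.2 and 4.34 CPM, and Mir141 at 19.8 and 1.14, from 62 and 5 counts. Mir205, a keratinocyte miRNA, had 4 and 8 counts and was not tested. All 6 tested genes were higher in replicate 1 by the exact test, from 1.38-fold for Mir200b (adjusted p = 0.00327) to 18.2-fold for Mir141 (adjusted p = 1.67e-18). Of all 459 genes tested, 29.0% were called higher in replicate 1. Scaled by all reads, 5 of 6 were called higher, against 91 of 459 genes tested. The list summed to 563 CPM in replicate 1 and 193 in replicate 2. Its median ratio of 4.94 was well above the 1.62 of Mir204, whose count was 6.19 times that of Mir200c in replicate 1 and 25.0 times in replicate 2. Over the 5 detected genes of the list the ratio of Mir204 changed between the libraries by 1.15-fold with Mir203 to 4.04-fold with Mir200c, and that of Mir211 by 1.15-fold with Mir200b to 5.47-fold with Mir200c. The part that cells of these kinds have in the difference of Mir204 between the libraries was not tested.

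**Figure D5:**
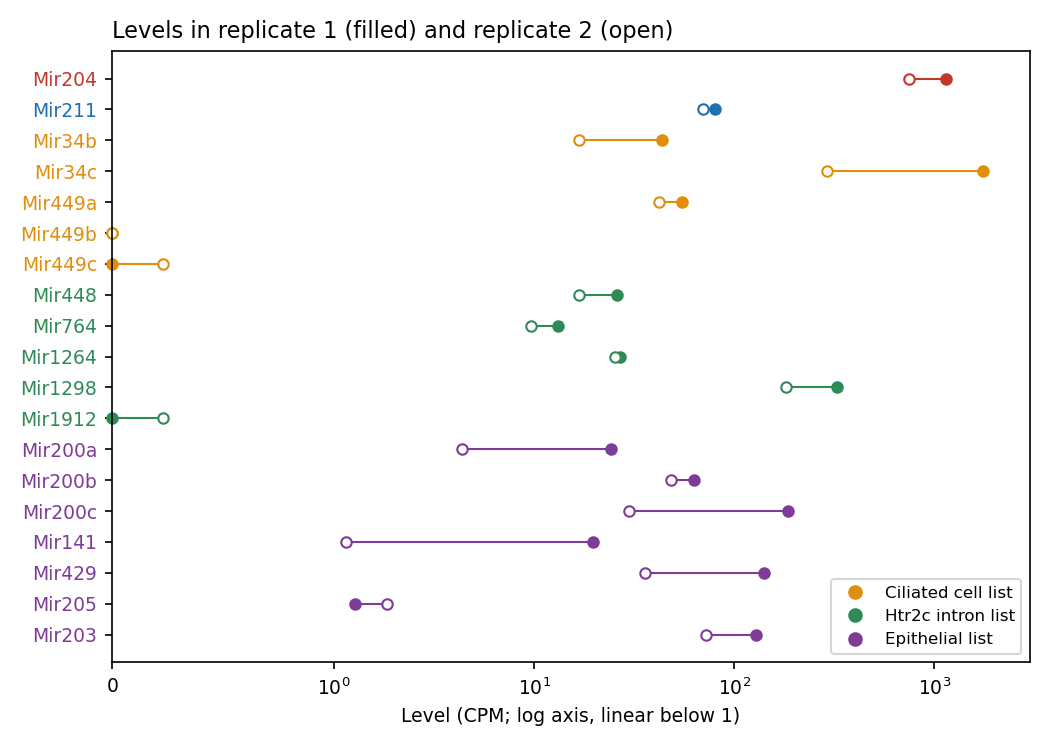
Level in replicate 1 (filled) and replicate 2 (open) of Mir204, Mir211 and the genes of 3 lists, in CPM on an axis that is logarithmic above 1 and linear below. Mir204 was at 1148 and 744 CPM, Mir34c at 1747 and 292, and Mir1298 at 328 and 181.

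The list named for pigment epithelium, retina and eye held 6 genes, all lower than Mir204 in mean level. It held Mir183, Mir96, Mir182 and Mir184, and also Mir9-1 and Mir124a-1, which stand in the neuronal list too. The list thus cannot stand for pigment epithelium alone. Mir183 and Mir182, of the sensory cluster that marks photoreceptors and hair cells, led at 158 ± 159 and 62.8 ± 38.4 CPM (SD, n = 2). Mir184, of the cornea and lens, was at 43.7 and 40.2 CPM in replicates 1 and 2, at 1.14-fold (adjusted p = 0.324, exact test). Over the 4 detected genes of the list the ratio of Mir211 changed between the libraries by 1.05-fold with Mir184 to 5.21-fold with Mir183, and that of Mir204 by 1.42-fold with Mir184 to 3.85-fold with Mir183. Of the 5 genes of this list tested, 3 were called, where 56.9% of all tested genes were, and all 3 were higher in replicate 1: Mir183 at 6.24-fold, Mir96 at 5.62-fold and Mir182 at 2.65-fold. Mir96 rested on 23 and 6 counts. Mir9-1 was at 0.957-fold (adjusted p = 0.846, exact test), and Mir124a-1, with 2 and 8 counts, was not tested.

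The neuronal, glial, vascular and blood genes were compared between the replicates in the same way. Among 14 neuronal genes tested, 4 were called higher in replicate 1 and 5 in replicate 2, with a median ratio of 0.969, which is near the shares over all tested genes, 56.9% called and 29.0% higher in replicate 1. The 4 included Mir132 and its neighbour Mir212, whose transcription follows neuronal activity. Over the 13 detected neuronal genes the ratio of Mir204 changed between the libraries by 1.07-fold with Mir132 to 3.08-fold with Mir128-1, with a median of 1.69, and the intervals of the replicates overlapped for 1 of 13. For Mir211 it changed by 1.02-fold with Mir138-2 to 2.28-fold with Mir128-1, with a median of 1.38, and they overlapped for 6 of 13. Of 3 oligodendrocyte genes 1 was called in each direction, with a median of 1.25. Of 3 vascular genes 2 were higher in replicate 1 and 1 was lower, with a median of 1.24, and of 6 genes of microglia and blood 2 were higher and 1 lower, with a median of 1.07. Scaled by all reads, the neuronal calls became 2 higher and 7 lower and those of microglia and blood 0 higher and 2 lower, while the oligodendrocyte and vascular counts were as before. The ratio of Mir204 lay above each of these medians, and that of Mir211 above the neuronal and the blood median; these are medians of few genes and were not tested against the members.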

How the data were processed

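The authors deposited 1 table of raw counts per library, with mm10 and annotation M21 named in the notes deposited beside it; the sources used here do not name an aligner, counter or trimming. Of 3 count columns, the second, read as the gene's own strand because it held 93.4% and 91.9% of stranded counts, was used. The 4 summary lines (unmapped, multimapping, unassigned, ambiguous) did not enter library sizes or tests. All 2202 identifiers matched GENCODE M21, which gave names, positions and introns. Multimapping reads are outside the gene counts, and the effect of CAST variants on mapping to mm10 was not tested.

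CPM used assigned counts. Replicates were compared by an exact binomial test, two-sided, on genes with at least 10 counts in either library, given TMM sizes (edgeR 4.0.16, R 4.3.3; factors 0.976 and 1.02), with Benjamini-Hochberg adjustment across all genes tested and a threshold of 0.05; its null is counting error alone. The code was tested on simulated data. DESeq2 1.42.0 size factors were an alternative. Also used were Python 3.11.15, scipy 1.17.1, pandas 2.3.3, numpy 2.4.6, matplotlib 3.10.9 and RNAfold 2.7.2. For the comparison of seeds, 325 of 384 detected genes had a RefSeq mature sequence, matched by position. Genes named are the members, genes sharing their seeds or hosts, the 3 nearest in level, the leading 2 of each list, and all of the ciliated, Htr2c and epithelial lists. Mir9-1, Mir9-2, the Mir124a genes, Mir96, Mir138-2, Mir184, Mir212, single seed pairs and neighbours in rank were named after their values were seen. Members and the 8 lists were chosen with earlier results of these data known.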

Additional observations from a re-analysis of the deposited data

How the results depend on the processing

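For 6 results, 31 alternatives kept both replicates. Of these, 25 left the result on its side of the threshold or within 1 SD, or within 1.5 times for the count of calls. Not all of them could move a value, so the tally does not measure stability. A change of the minimum count alters the adjusted p of a gene but not its ratio. With all reads of the library as denominator, the levels were 308 for Mir204 and 24.5 for Mir211 on the CPM scale; without let-7 and Mir98 in the denominator they were 1509 and 119 CPM, both following from the size of the denominator. The ratio of Mir211 between replicates, 1.20, passed the threshold with DESeq2 size factors (1.22, adjusted p = 0.0392) and when only genes with at least 100 counts were tested (1.20, adjusted p = 0.0491, as fewer genes were tested), over a range of 0.0392 to 0.693. That of Mir204 passed under all 6 alternatives, at 1.42 to 1.65. The pair ratio was 12.3 to 12.5 over 3 alternatives. Counting without regard to strand could not change this ratio, since neither gene had opposite-strand counts. Leaving out 1 replicate gave 744 to 1148 CPM for Mir204, 69.9 to 79.7 for Mir211 and 10.6 to 14.4 for the pair ratio; with 2 replicates each such value lies within 1 SD of the mean by construction and says nothing of stability. A comparison of the replicates could not be made without either. Genes called numbered 215 to 280. No paired analysis was possible because there is 1 group. With 250 and 306 counts, counting error limits Mir211.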
